A study of Mus musculus with 18 samples.

Results

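The 10 genes described here encode regulators that stand between the receptors of innate immunity and the transcription factors NF-kB and IRF3. They were taken by symbol, namely Traf1, Traf2, Traf3, Traf6, Tank, Tbk1, Ikbke, Tnfaip3, Tnip1 and Tnip3, and all 10 were found among the 38887 genes in the files. RNA-seq was done on bone marrow-derived macrophages (BMMs), which are macrophages grown from marrow with the growth factor M-CSF, from female C57BL/6J mice of 3 genotypes. All 3 genotypes were described as carrying Cre recombinase knocked into the myeloid gene Lyz2, and mice with Cre alone served as WT. In GILZ KO mice Cre removes exon 6 of Tsc22d3, the gene of glucocorticoid-induced leucine zipper (GILZ), which is flanked by loxP sites. In GILZ TG mice Cre deletes a stop cassette in front of a Tsc22d3 cDNA under the ROSA26 promoter, so both alleles act in cells that express Lyz2 rather than in macrophages alone. Cells were left untreated or given 100 ng/ml lipopolysaccharide (LPS, the bacterial ligand of TLR4) for 4 h, with 3 libraries in each of 6 groups. The comparisons ask how LPS moved these genes and whether loss or gain of GILZ altered their level or their response.

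TRAF proteins are adaptors that receptors recruit on activation. TRAF6 is a ubiquitin ligase that carries the TLR and IL-1 receptor signal to the kinase TAK1, TRAF2 serves TNF receptors, TRAF1 partners TRAF2, and TRAF3 serves the interferon branch while holding the non-canonical NF-kB kinase NIK in check. TBK1 and IKK-epsilon, the product of Ikbke, phosphorylate IRF3, and TANK is a scaffold that binds both kinases and TRAF3. A20, the product of Tnfaip3, edits ubiquitin chains and shuts down NF-kB signalling, and Tnip1 and Tnip3 encode the A20-binding proteins ABIN-1 and ABIN-3. In macrophages Tnfaip3 is a textbook feedback gene of NF-kB.

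The libraries held 14583055 to 38557029 expected counts, and no pair held identical values. Tsc22d3 followed the labels, at 14.9 to 18.8 TPM (transcript abundance corrected for length and depth) in untreated WT, 1.89 to 2.81 TPM in untreated GILZ KO and 152 to 159.8 TPM in untreated GILZ TG. After LPS it stood at 4.56 to 5.81, 2.50 to 3.28 and 127 to 141 TPM in the same order, so the gap between WT and GILZ KO was smaller there. The reported edgeR test did not call Tsc22d3 between GILZ KO and WT after LPS. Its log2 difference there was -0.80 to -0.56 over this test and its alternatives, of which 2 called it. Lyz2 separated WT, at 6766 to 15401 TPM, from GILZ KO and GILZ TG, at 17.2 to 70.2 TPM, although the Cre insertion interrupts Lyz2. These levels go against WT carrying the knock-in on as many alleles as the other two genotypes, and how many WT carried was not tested. A difference of either genotype from WT thus cannot be told apart from one tied to Cre or the Lyz2 locus. Summed macrophage markers (6 genes) reached 2928 to 3582 TPM in every library. In the 4 libraries of GILZ TG replicates 1 and 2, 6 stromal markers summed to 115 to 168 TPM against 6.45 to 30.6 TPM in the other 14 libraries, 6 neutrophil markers to 174 to 487 TPM against 19.1 to 79.3 TPM, and 6 B-lineage markers to 36.4 to 55.4 TPM against 16.8 to 35.4 TPM. In bulk RNA, fewer cells of a type and less RNA per cell cannot be told apart.

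The promoters of 5 genes are shown first, because the 5 differ in both sequence and response. Start sites and sequences come from RefSeq on GRCm38.p6, where all 10 genes matched with 14 start sites in all, and each window was searched on both strands from 250 bases before to 50 bases after the start. Capitals mark matches to the NF-kB consensus, and each line gives the 150 bases that end at the start site, 5′ to 3′ along the gene's own strand. Tnfaip3 and Traf1 had the 2 largest LPS responses, Tnip1 had the largest genotype difference after LPS, Tnip3 had the only genotype call, and Traf3 was the single gene that fell.
Tnfaip3 (chr10:19015411-19015560, minus strand): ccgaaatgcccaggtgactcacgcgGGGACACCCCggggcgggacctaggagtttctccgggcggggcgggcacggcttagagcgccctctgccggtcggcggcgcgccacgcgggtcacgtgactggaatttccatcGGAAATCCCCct
Traf1 (chr2:34961773-34961922, minus strand): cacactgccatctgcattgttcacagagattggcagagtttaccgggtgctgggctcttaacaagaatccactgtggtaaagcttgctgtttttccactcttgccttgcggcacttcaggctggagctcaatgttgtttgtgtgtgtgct
Tnip1 (chr11:54962941-54963090, minus strand): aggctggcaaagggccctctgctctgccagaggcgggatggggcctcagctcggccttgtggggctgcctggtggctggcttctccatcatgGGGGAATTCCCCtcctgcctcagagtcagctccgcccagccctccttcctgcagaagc
Tnip3 (chr6:65590248-65590397, plus strand): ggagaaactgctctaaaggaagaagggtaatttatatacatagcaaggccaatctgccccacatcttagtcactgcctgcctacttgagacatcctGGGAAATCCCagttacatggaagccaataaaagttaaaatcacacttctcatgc
Traf3 (chr12:111166220-111166369, plus strand): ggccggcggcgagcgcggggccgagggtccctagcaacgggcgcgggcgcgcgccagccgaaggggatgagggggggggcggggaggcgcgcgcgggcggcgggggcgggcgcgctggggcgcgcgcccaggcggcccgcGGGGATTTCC

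The NF-kB consensus occurred in the windows of 5 of the 10 genes (Tnfaip3, Tnip1, Tnip3, Tank and Traf3), and in 8.46% of the 32851 promoters in the RefSeq table. Tnfaip3 had 2 separate matches at the start site shown, which began 125 and 12 bases before it, and its other RefSeq start site had none. The 3 matches of Tnip1 overlapped within 1 stretch and began 58, 57 and 56 bases before the start. Tnip3 had 1 match, which began 54 bases before the start, and Traf3 had 1, which began 10 bases before it. An AP-1 site (TGANTCA) occurred for Tank, Ikbke and Tnfaip3, and in 7.81% of all promoters. No window held an interferon-stimulated response element core (GAAANNGAA, in 8.56% of all promoters) or a glucocorticoid response element core (ACANNNTGT, in 6.85%). A match is a run of letters and no evidence of binding. Traf3, which fell after LPS, and Tnip3, whose direction in GILZ TG depended on the scaling, carried a match. Traf1, which rose, carried none in this window.

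In GENCODE M21 on GRCm38, all 10 genes are annotated as protein-coding, and 4 of them (Traf1, Traf2, Traf6 and Tank) lie on chromosome 2. Tnfaip3 spans chr10:19000910-19015657 on the minus strand and Traf1 chr2:34941750-34961772 on the minus strand. Tnip1 spans chr11:54910785-54962917 on the minus strand, Tnip3 chr6:65525313-65634040 on the plus strand and Traf3 chr12:111166370-111267153 on the plus strand. The RefSeq starts of Tnfaip3 and Tnip3 used above lie inside the longer GENCODE spans. The posterior SD that the quantifier gave for the counts was 0 for each of the 10 genes in every library.

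Levels per transcript length differed widely between the genes. Over the 9 untreated libraries, Ikbke had the highest mean at 260.1 TPM, followed by Tnip3 at 235 TPM and Tnip1 at 127 TPM. Below them stood Tbk1 (68.4 TPM), Tank (58.2 TPM), Traf1 (47.4 TPM), Tnfaip3 (36.9 TPM), Traf3 (25.8 TPM), Traf2 (24.8 TPM) and Traf6 (12.9 TPM). The ranges over libraries overlapped for the neighbours Ikbke and Tnip3, Tbk1 and Tank, and Traf3 and Traf2, so these pairs had no firm order. After LPS the order was Ikbke (572 TPM), Tnfaip3 (404 TPM), Traf1 (360.4 TPM), Tnip1 (340 TPM), Tnip3 (250.1 TPM), Tank (152 TPM), Tbk1 (136 TPM), Traf2 (54.5 TPM), Traf6 (10.9 TPM) and Traf3 (9.10 TPM). Tnfaip3 thus moved from the seventh place to the second and Traf1 from the sixth to the third. Neighbours overlapped among Tnfaip3, Traf1 and Tnip1, between Tank and Tbk1, and between Traf6 and Traf3. The 10 genes together made up 829 to 932 TPM in untreated libraries and 2105 to 2446 TPM after LPS.

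**Figure D1:**
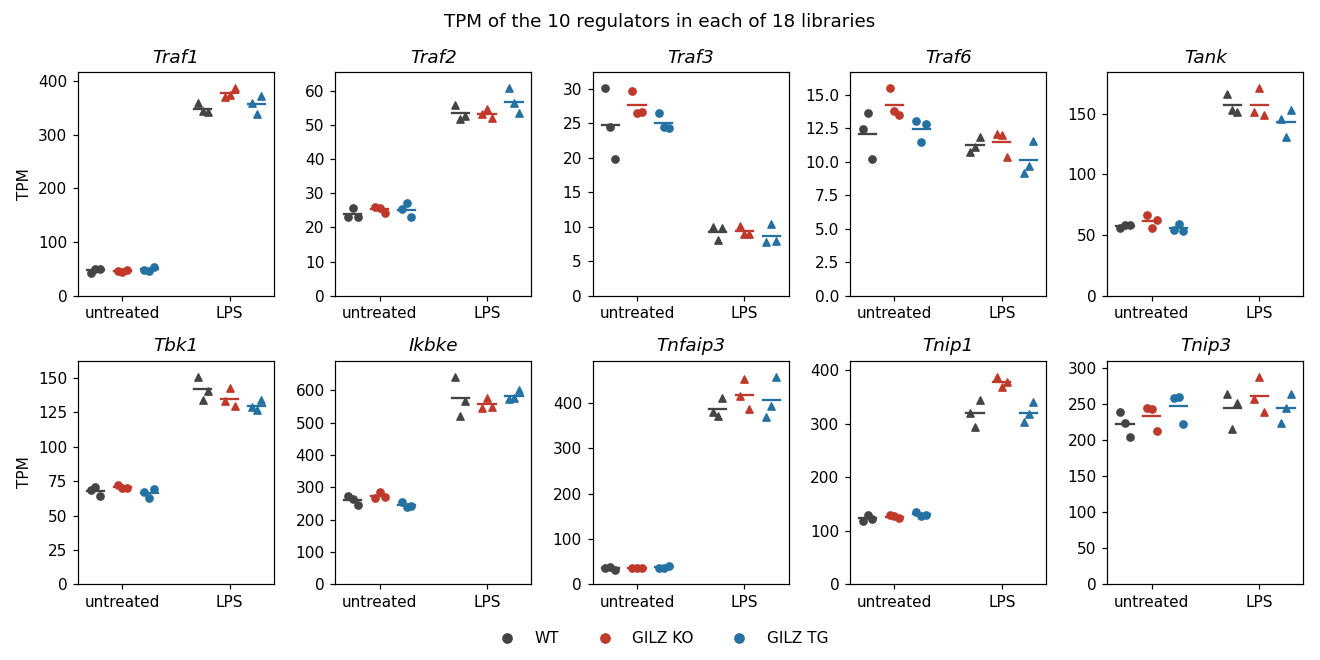
TPM (vertical axes, linear from 0) of each gene in each of the 18 libraries, untreated (circles) or after LPS (triangles), with 1 point per library coloured by genotype and a line at the mean of 3. Tnfaip3 and Traf1 lie far higher in every LPS library, Traf3 lies lower in every one, and the values of Tnip3 overlap between untreated and LPS-treated libraries.

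LPS raised 7 of the 10 genes and lowered Traf3 in every genotype, whichever way the libraries were scaled. With TMM scaling, edgeR's quasi-likelihood test over 13169 genes called all 10 genes changed in each genotype (Benjamini-Hochberg adjusted p below 0.05), 9 higher and 1 lower. Of all genes tested, 68.6% were called in WT, 68.5% in GILZ KO and 68.7% in GILZ TG. Calls of a rise made up 33.5%, 33.2% and 33.6% of all genes, and calls of a fall 35.1%, 35.4% and 35.1%. Lack of overlap between LPS and untreated libraries was also common. On counts scaled by TMM it held for 4520 genes as higher and 4792 as lower in WT. The numbers were 4807 and 5116 in GILZ KO, and 4472 and 4811 in GILZ TG. Over all genes it was not counted in TPM. The median log2 fold change of the 10 genes was 1.76 in WT, 1.69 in GILZ KO and 1.83 in GILZ TG, against -0.022, -0.023 and -0.021 over all genes.

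The scaling decided the direction of Traf6 in every genotype and of Tnip3 in GILZ TG. TMM factors were 1.24 to 1.28 in untreated and 0.756 to 0.828 in LPS-treated libraries, and the 100 most abundant genes took 22.1 to 23.7% of the counts without and 26.3 to 27.9% with LPS. On library totals alone the median log2 fold change of all genes was -0.70 in WT, -0.66 in GILZ KO and -0.69 in GILZ TG, and on log2(TPM + 1) it was -0.51, -0.52 and -0.51. On library totals 7 of the 10 genes were called higher and 2 lower in each genotype. At that scaling 15.9%, 15.5% and 15.5% of all genes in WT, GILZ KO and GILZ TG were called higher, and 68.3%, 67.2% and 68.3% lower. The 2 that turned were Traf6 and, in GILZ TG, Tnip3. RNA per cell was not measured, so which scaling reflects amounts per cell was not tested.

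**Figure D2:**
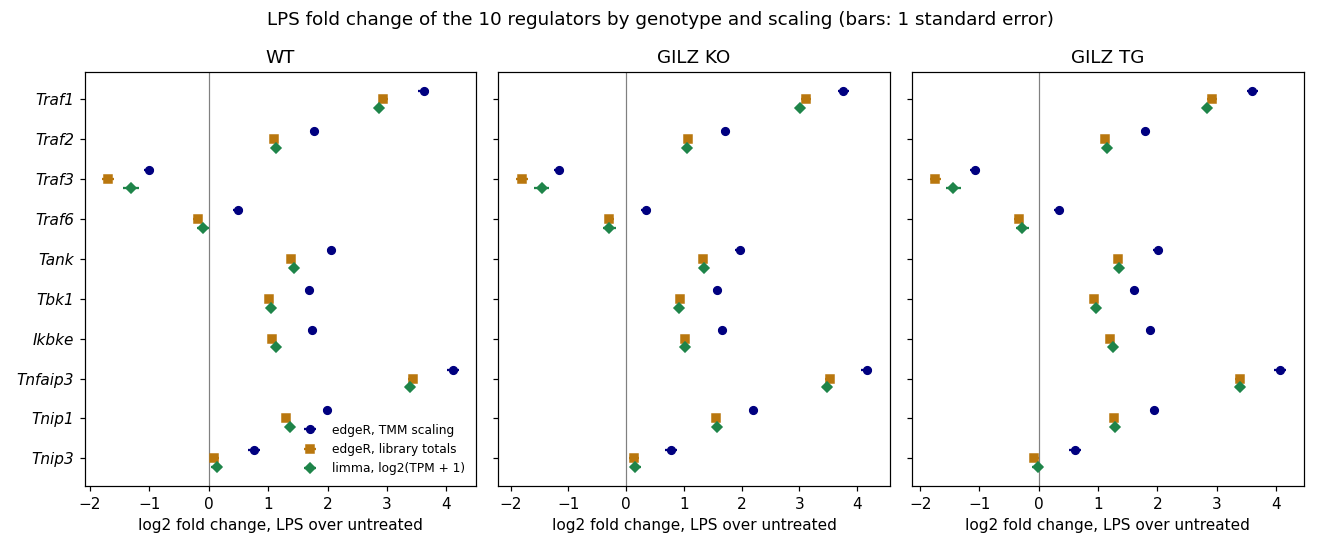
Log2 fold change of LPS over untreated cells (horizontal axis) for each gene in WT, GILZ KO and GILZ TG, from edgeR with TMM scaling, edgeR on library totals, and limma on log2(TPM + 1), with bars of 1 standard error. Traf6 and Tnip3 lie on or near 0 on the scales without TMM, while the other 8 genes stay on their side of 0.

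Tnfaip3, the A20 gene, had the largest response. Its untreated TPM was 36.6, 38.8 and 32.6 in WT, 36.1, 37.1 and 36.8 in GILZ KO, and 36.8, 35.5 and 41.5 in GILZ TG. After LPS it was 379, 371 and 412 in WT, 416, 452 and 387 in GILZ KO, and 368, 393 and 456 in GILZ TG. Each LPS library lay far above each untreated one, and the 3 genotypes overlapped. The ratio of mean TPM was 10.8 in WT, 11.4 in GILZ KO and 10.7 in GILZ TG. The edgeR log2 fold change was 4.11 (SE 0.096, adjusted p 4.7e-16) in WT, 4.16 in GILZ KO and 4.07 in GILZ TG.

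Its partners behaved unlike each other. Tnip1, the ABIN-1 gene, rose from 119, 129 and 122 TPM to 320, 294 and 345 TPM in WT. In GILZ KO it rose from 129, 128 and 124 TPM to 387, 370 and 379 TPM, and in GILZ TG from 135, 128 and 129 TPM to 304, 318 and 342 TPM. Untreated and LPS groups did not overlap, and the log2 fold change by edgeR was 1.98 (SE 0.068, adjusted p 5.5e-14) in WT, 2.20 in GILZ KO and 1.94 in GILZ TG. Tnip3, the ABIN-3 gene, stood at 239, 225 and 205 TPM in untreated WT and at 264, 216 and 252 TPM in LPS-treated WT. In GILZ KO it went from 245, 244 and 214 TPM to 258, 288 and 239.9 TPM, and in GILZ TG from 259, 261 and 223 TPM to 224, 245 and 265 TPM. These TPM groups overlapped in all 3 genotypes, whereas counts scaled by TMM were higher after LPS without overlap in all 3. With TMM scaling its log2 fold change was 0.76 (SE 0.099, adjusted p 2.4e-06), 0.78 and 0.61 in WT, GILZ KO and GILZ TG by edgeR. On library totals it was 0.086, 0.14 and -0.074, with edgeR adjusted p of 0.34, 0.13 and 0.41. Relative to Tnip1 it fell: the ratio of Tnip3 to Tnip1 TPM within a library, which no scaling alters, was 1.69 to 2.04 in the 9 untreated libraries and 0.634 to 0.826 in the 9 treated ones.

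Among the TRAF adaptors Traf1 stood out. It went from 42.1, 49.2 and 49.9 TPM to 358, 344 and 343 TPM in WT. In GILZ KO the values were 45.7, 43.7 and 48.0 TPM untreated and 371, 374 and 386 TPM after LPS, and in GILZ TG they were 48.1, 46.3 and 53.1 TPM and 359, 338 and 371 TPM. No group overlapped across treatment, and the log2 fold change by edgeR was 3.62 (SE 0.093, adjusted p 1.5e-15) in WT, 3.76 in GILZ KO and 3.60 in GILZ TG. Traf2, the partner of Traf1 at TNF receptors, rose less, from 22.9 to 27.1 TPM in untreated libraries to 51.7 to 60.7 TPM after LPS. Its log2 fold change was 1.77, 1.72 and 1.79 in WT, GILZ KO and GILZ TG. The ratio of Traf1 to Traf2 TPM went from 1.70 to 2.32 in untreated libraries to 5.92 to 7.40 after LPS.

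Traf3 fell. It stood at 30.0, 24.4 and 19.9 TPM in untreated WT and at 9.90, 8.09 and 9.77 TPM after LPS. In GILZ KO it fell from 29.6, 26.5 and 26.6 TPM to 10.2, 8.99 and 8.95 TPM, and in GILZ TG from 26.4, 24.4 and 24.2 TPM to 7.72, 10.4 and 7.86 TPM. Every LPS library was below every untreated one, and mean TPM after LPS was 0.374, 0.340 and 0.347 of the untreated mean. By edgeR with TMM the log2 fold change was -1.01 (SE 0.083, adjusted p 7.2e-09) in WT, -1.17 in GILZ KO and -1.07 in GILZ TG. On library totals it was -1.69, -1.81 and -1.74. The quantifier's weighted transcript length of Traf3 had a median of 5710 bases in untreated and 4861 bases in LPS-treated WT, 5409 and 4548 bases in GILZ KO, and 5364 and 4801 bases in GILZ TG. TPM takes this length into account and counts do not.

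Traf6, the adaptor that TLR4 uses through MyD88, changed little. Its TPM was 12.5, 13.6 and 10.2 in untreated WT and 10.7, 11.1 and 11.8 after LPS. In GILZ KO it was 15.5, 13.8 and 13.5 untreated and 12.0, 12.0 and 10.4 after LPS, and in GILZ TG 13.0, 11.5 and 12.8 untreated and 9.17, 9.65 and 11.6 after LPS. The groups overlapped in WT and GILZ TG and did not in GILZ KO. With TMM the edgeR log2 fold change was 0.49 (SE 0.083, adjusted p 4.9e-05), 0.34 and 0.33, and on library totals -0.19, -0.29 and -0.34 in WT, GILZ KO and GILZ TG.

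The kinase arm rose as a group of 3. Ikbke stood at 274, 263 and 244 TPM in untreated WT and at 640.4, 521 and 566 TPM after LPS. In GILZ KO it rose from 268, 287 and 270 TPM to 546, 575 and 547 TPM, and in GILZ TG from 255, 239 and 242 TPM to 574, 576 and 601 TPM. Treated and untreated groups did not overlap, and the edgeR log2 fold change was 1.74 (SE 0.065, adjusted p 1.6e-13) in WT, 1.65 in GILZ KO and 1.88 in GILZ TG. Tbk1 ran from 62.8 to 72.0 TPM untreated and from 127 to 151 TPM after LPS, with log2 fold changes of 1.69, 1.57 and 1.60. Tank, the scaffold, ran from 53.2 to 66.1 TPM untreated and from 131 to 171 TPM after LPS, with log2 fold changes of 2.06, 1.97 and 2.01. The ratio of Ikbke to Tbk1 TPM was 3.48 to 4.11 in the 9 untreated libraries. After LPS it was 3.89 to 4.25 in WT, 4.03 to 4.23 in GILZ KO and 4.45 to 4.53 in GILZ TG. The GILZ TG values lay above those of the other two genotypes, but 3 libraries against 3 cannot give an exact permutation p below 0.1, and this ratio was looked at with the values known.

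**Figure D3:**
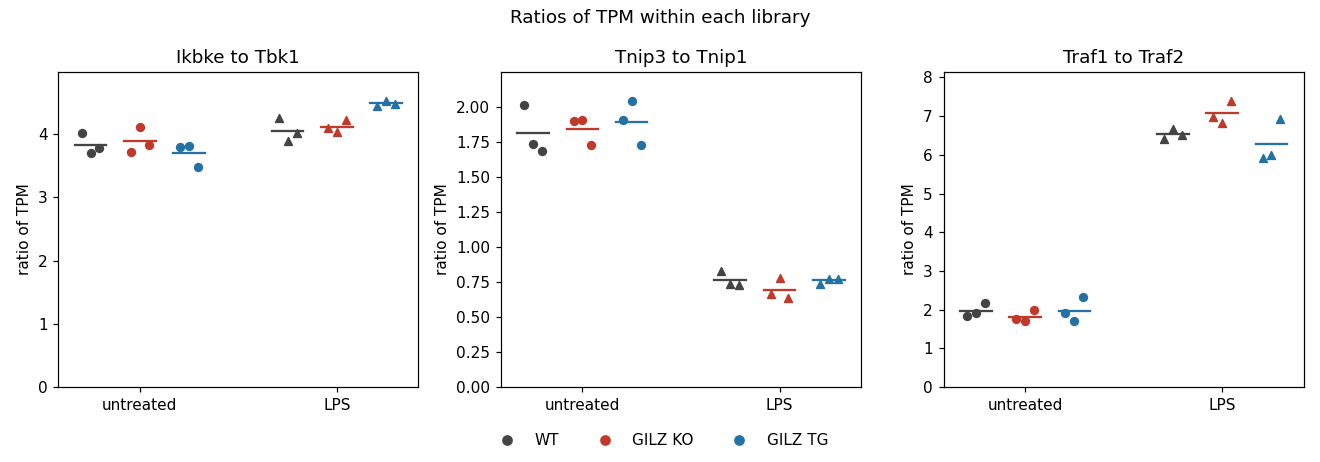
Ratio of TPM within each library (vertical axes, linear from 0) for Ikbke to Tbk1, Tnip3 to Tnip1 and Traf1 to Traf2, with 1 point per library coloured by genotype, circles for untreated and triangles for LPS, and a line at the mean of 3. The Tnip3 to Tnip1 ratio is lower and the Traf1 to Traf2 ratio higher in every LPS library, and Ikbke to Tbk1 is highest in the GILZ TG libraries after LPS.

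The wider pathway, 40 further genes of TRAF, A20, linear ubiquitin, TAK1 and IKK signalling, was split. With TMM, edgeR called 25 higher and 10 lower by LPS in WT, 24 and 11 in GILZ KO, and 24 and 10 in GILZ TG, where 33.5% of all genes were higher and 35.1% lower in WT. On library totals the split was 16 higher and 21 lower in WT, 15 and 21 in GILZ KO, and 16 and 21 in GILZ TG, against 15.9% of all genes higher and 68.3% lower in WT. Its median log2 fold change with TMM was 0.46, 0.45 and 0.41. The largest rises were the same 4 genes in each genotype: Peli1, a ubiquitin ligase of TLR signalling (4.53 in WT), Trafd1, a negative regulator of TLR signalling (3.93), Map3k8, the kinase Tpl2 that activates ERK (3.44), and Rnf31, the catalytic subunit of the linear ubiquitin ligase (3.10). Peli1 went from 17.4 to 20.6 TPM to 263 to 295 TPM in WT. The genes with the largest falls in WT were Traf4 (-2.07, at 0.18 to 0.39 TPM after LPS), Traf3ip3 (-1.94), Nlrc3, an inhibitor of TRAF6 and of TBK1 signalling (-1.92), and Map3k14, which encodes NIK (-1.64). Map3k14 thus fell alongside Traf3, from 13.6 to 14.6 TPM to 2.47 to 3.12 TPM in WT. Among called genes, the same 4 had the largest falls in GILZ KO, and in GILZ TG Tab1, a TAK1-binding subunit (-1.27), took the place of Traf4. The mean of Traf4 in GILZ TG was 1.72 TPM untreated and 0.40 TPM after LPS (0.06 to 0.58 TPM). In WT the means were 1.66 and 0.27 TPM, and in GILZ KO 1.16 and 0.16 TPM. At such low levels these values cannot tell whether Traf4 fell less in GILZ TG.

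Whether genotypes differed in the size of their LPS response was tested in the same model, and edgeR called 0 of the 10 genes. Of all genes, edgeR called 0.0152% for GILZ KO against WT, 0.00759% for GILZ TG against WT and 0.121% for GILZ KO against GILZ TG. Unadjusted p was below 0.05 for 1, 0 and 2 of the 10 genes in these comparisons, and neither DESeq2 nor limma called any. The share of all genes below that unadjusted threshold is not given here, so no excess can be read from these counts. The differences in log2 fold change ran from -0.16 to 0.21, from -0.16 to 0.14 and from -0.22 to 0.26, and their bounds of 2 standard errors lay between -0.44 and 0.45. Tnip1 had the largest, with a response higher in GILZ KO by 0.21 than in WT (SE 0.093, edgeR adjusted p 0.73) and by 0.26 than in GILZ TG (SE 0.093, edgeR adjusted p 0.31). For Ikbke the response in GILZ KO was 0.22 below that in GILZ TG, a difference of -0.22 (SE 0.089, edgeR adjusted p 0.38). None of the 40 pathway genes was called either. The 3 comparisons share libraries with each other.

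Differences between genotypes were small. Without LPS, edgeR called none of the 10 genes in GILZ KO against WT (0.0951% of all 12621 genes called) or in GILZ TG against WT (0.642%), and 1, as lower, in GILZ KO against GILZ TG (4.94%, and 2.16% as lower). After LPS it called none in any of the 3 pairs, where 0.0822% of 12164 genes were called for GILZ KO against WT, 0.46% for GILZ TG against WT, and 2.6% for the pair without WT. Unadjusted p was below 0.05 for 0, 1 and 2 of the 10 genes without and for 1, 0 and 2 with LPS, in the same order. As the share of all genes at that unadjusted threshold is not given here, these counts show no excess. DESeq2 called Tnip3 in both untreated comparisons with GILZ TG and no other of the 10 genes, and limma on log2(TPM + 1) called none. Over the 6 comparisons the log2 differences of the 10 genes ran from -0.19 to 0.23, and the widest bounds of 2 standard errors reached -0.33 and 0.37.

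**Figure D4:**
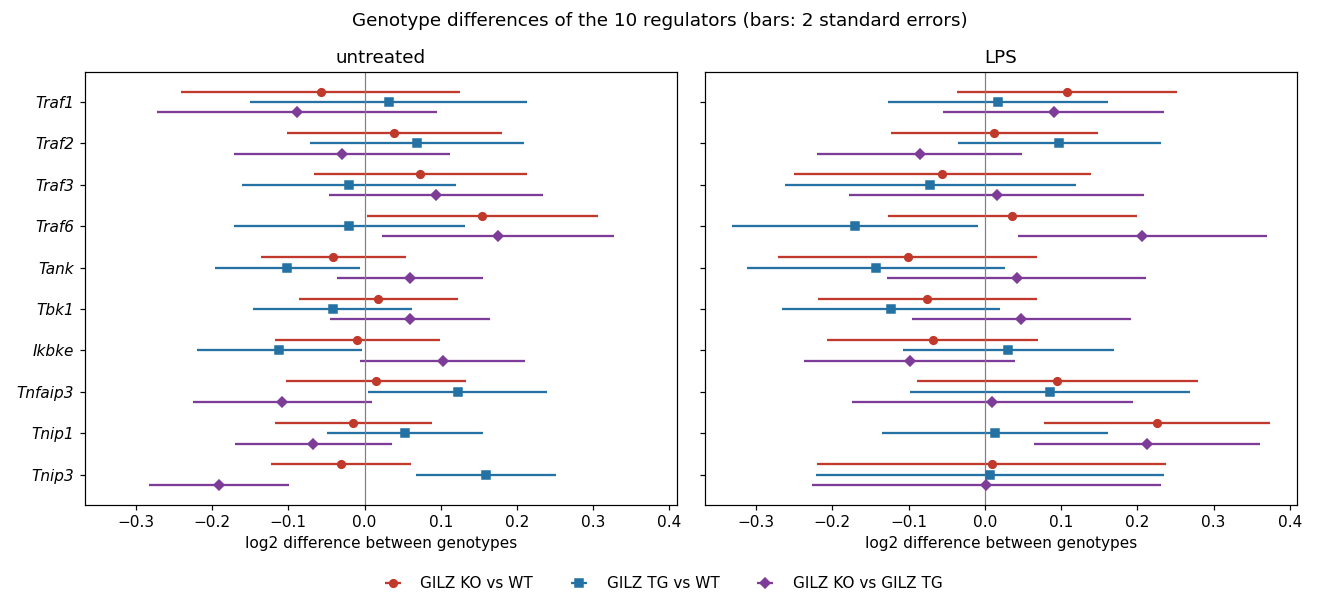
Log2 difference between genotypes (horizontal axis) for each of the 10 genes without LPS (left) and after LPS (right), from edgeR, with bars of 2 standard errors. Most bars cross 0, and Tnip3 without LPS and Tnip1 after LPS lie farthest from it. A bar clear of 0 need not mean an unadjusted p below 0.05: for Traf6 in untreated GILZ KO against WT, edgeR gave 0.068.

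The 1 call was Tnip3, lower in untreated GILZ KO than in untreated GILZ TG. On the TMM scale of the 9 untreated libraries it stood at 300.2, 304 and 294 CPM (counts scaled to library size) in WT, at 298, 297 and 284 CPM in GILZ KO and at 342, 337 and 324 CPM in GILZ TG. The GILZ TG libraries were higher than the other 6, which overlapped with each other. The log2 difference of GILZ KO from GILZ TG was -0.19 (SE 0.046, edgeR adjusted p 0.0437), and that of GILZ TG from WT was 0.16 (SE 0.046, edgeR adjusted p 0.159; DESeq2 adjusted p 0.0196). In TPM the GILZ KO and GILZ TG values overlapped, and limma on log2(TPM + 1) gave -0.080 (adjusted p 0.62). The call was lost when any of 5 of the 6 libraries compared was left out, with log2 differences of -0.20 to -0.17 and edgeR adjusted p of 0.108 to 0.151. Without GILZ TG replicates 1 and 2, the libraries high in stromal, neutrophil and B-lineage markers, it was -0.15 (edgeR adjusted p 0.297). After LPS the difference was 0.0018 (SE 0.11).

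After LPS, Tnip1 lay highest in GILZ KO. It stood at 453, 432 and 490 CPM in WT, at 536, 524 and 547 CPM in GILZ KO and at 443, 442 and 503 CPM in GILZ TG. The GILZ KO libraries did not overlap with either other genotype. The log2 difference was 0.23 from WT (SE 0.074, edgeR adjusted p 0.376) and 0.21 from GILZ TG (SE 0.074, edgeR adjusted p 0.146), so neither passed the test. Leaving out GILZ TG replicate 3, the highest of its group, gave 0.28 (edgeR adjusted p 0.0282), and leaving out GILZ TG replicates 1 and 2 gave 0.088 (edgeR adjusted p 0.789). Traf6 moved in the same way between GILZ KO and GILZ TG, with 0.21 (SE 0.082, edgeR adjusted p 0.197) over all libraries, 0.28 (edgeR adjusted p 0.0348) without replicate 3 and 0.052 (edgeR adjusted p 0.898) without replicates 1 and 2 of GILZ TG.

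Groups without any overlap in CPM were counted as well. Without LPS this held for 1 of the 10 genes in GILZ KO against WT (Traf6, higher), where 17.5% of all genes did not overlap. Between GILZ TG and WT it held for 3 (Tank and Ikbke lower, Tnip3 higher, 16.7% of all genes), and in GILZ KO against GILZ TG for 5 (Traf3 and Traf6 higher, Tnfaip3, Tnip1 and Tnip3 lower, 31.4%). After LPS it held for 2 in GILZ KO against WT (Traf1 and Tnip1, both higher, 17%), for none in GILZ TG against WT (16.5%) and for Tnip1 alone in GILZ KO against GILZ TG (23.2%). Of the 40 pathway genes, edgeR called 1 in these 6 comparisons: Tax1bp1, an adaptor of A20, higher in untreated GILZ KO (148 to 153 TPM) than in untreated GILZ TG (116 to 120 TPM), by 0.23 (SE 0.050, edgeR adjusted p 0.0347). With any of 5 of the 6 libraries compared left out, the difference stayed at 0.20 to 0.25 with edgeR adjusted p of 0.0771 to 0.134, and without GILZ TG replicate 3 it was 0.25 (edgeR adjusted p 0.0152). Without GILZ TG replicates 1 and 2 it was 0.17 (edgeR adjusted p 0.263).

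The genes whose pattern was most like each member were sought by Pearson's r of log2(TPM + 1) over the 18 libraries, among 9383 genes with a mean of at least 5 TPM. These correlations share the 2 treatments and are a description. Traf1 and Tnfaip3 both had Socs3, a feedback inhibitor of cytokine receptors, first (r = 0.9989 and 0.9986), with Myd88 and Pim1 next for Traf1 and Irak2 and Ogfr for Tnfaip3. Traf3 was nearest to R3hdm1 (0.9969), Ranbp9 and Scaf4. Ikbke was nearest to Nsd3 (0.9975), Ifi207 and Zfp800, and Tbk1 to Etnk1 (0.9975), Morc3 and Pnpt1. Traf2 was nearest to Mafk (0.9946), Tank to Slc28a2 (0.9953) and Tnip1 to Rab11fip1. The nearest gene to Traf6 was Rlim at 0.9487 with the pathway gene Chuk second, and to Tnip3 it was Clcn5 at only 0.812, the lowest of the 10.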

How the data were processed

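Poly(A) RNA of 18 libraries was sequenced from 1 end. Per the labels and the methods of the study, the authors checked reads with FastQC 0.11.2, mapped them with the grape-nf pipeline to GRCm38 (mm10) and tested counts with DESeq2 1.40.2. The tables of those tests, which hold fold changes and p-values, were not used. The deposited files hold per gene an expected count, not normalized, and TPM, computed by the authors from counts and transcript length. The quantifier's version is not given in the sources used here. Expected counts were rounded, and 14 entries with no gene were left out. Genes were filtered (filterByExpr), scaled by TMM and tested with edgeR 4.0.16 (quasi-likelihood, Benjamini-Hochberg over all genes, threshold 0.05) in R 4.3.3. LPS effects came from all 18 libraries, genotype differences from the 9 libraries of a treatment. Standard errors are the log2 fold change divided by the root of F. Alternatives were DESeq2 1.42.0, its size factors in edgeR, no filter, limma 3.58.1 on log2(TPM + 1) and log2(TPM + 0.1), a replicate block, all 18 libraries for genotype differences, and each library left out. Library totals as the only scaling, and leaving out GILZ TG replicates 1 and 2, were added after seeing the data. The 10 genes and all lists were chosen with earlier results of these data known. The text names all 10 genes and, in each LPS comparison, up to 4 called pathway genes with the largest change per direction. It also names every called pathway gene in other comparisons, and 1 to 3 of the 3 genes most like each member. The fits were tested on simulated data. Nothing in the labels says whether same-numbered libraries share a mouse. Deviations from group means of untreated and LPS libraries with the same number correlated at 0.27, 0.40 and 0.61 in GILZ TG. Over all genotypes, 4 of 9 such pairs correlated above 0.1. The reported tests held no term for pairing, and the replicate block alone did. Per the study, each group came from 3 mice. Depth was 14583055 to 38557029 expected counts per library.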

Additional observations from a re-analysis of the deposited data

How the results depend on the processing

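The 10 genes kept 9 calls of a rise and 1 of a fall by LPS in every genotype under DESeq2, its size factors, no filter, the replicate block, each library left out and, for GILZ TG, without its replicates 1 and 2. Scaling without TMM turned Traf6 to -0.19 in WT, -0.29 in GILZ KO and -0.34 in GILZ TG on library totals, to -0.092, -0.29 and -0.28 with limma on log2(TPM + 1), and to -0.098, -0.31 and -0.30 on log2(TPM + 0.1). It turned Tnip3 in GILZ TG to -0.074, -0.017 and -0.017, and the check gene Tsc22d3 in GILZ TG to -0.34, -0.24 and -0.24, in the same order. In WT and GILZ KO Tnip3 kept its direction without passing the test.

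Of the 10 genes, the number called in untreated GILZ TG against WT was 1 with DESeq2. In untreated GILZ KO against GILZ TG it was 0 with no filter, with limma on either pseudocount, on all 18 libraries and without GILZ TG replicates 1 and 2, and 0 to 1 with a library left out. After LPS it was 0 to 2 with a library left out, where 2 came without GILZ TG replicate 3. Of the pathway genes, untreated GILZ KO against GILZ TG gave 3 with DESeq2, 2 with no filter, 0 without GILZ TG replicates 1 and 2, and 0 to 2 with a library left out. After LPS it gave 1 with DESeq2, no filter or all 18 libraries and 0 to 4 with a library left out, and GILZ TG against WT gave 0 to 3.

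With the replicate block, 10 of 10 genes stayed called by LPS in each genotype, 9 higher and 1 lower, no response of the 10 differed, and Tnip3 remained the 1 genotype call (-0.19, edgeR adjusted p 0.0386). The block gave 2 pathway genes in untreated GILZ KO against GILZ TG and changed no call of the 10 genes. Only in GILZ TG did every same-numbered pair of LPS and untreated libraries correlate above 0.1, though WT replicate 1 reached 0.264. Across genotypes 2 of 18 pairs correlated above 0.1. A low correlation cannot show that same-numbered libraries came from different mice, so pairing in WT and GILZ KO was not settled.

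Counts over all genes varied far more. Over all settings they ran from 5 to 79 (12 in the reported test) for untreated GILZ KO against WT, 16 to 665 (81) for GILZ TG against WT and 34 to 1306 (623) for GILZ KO against GILZ TG. After LPS they ran from 4 to 100 (10), 15 to 1067 (56) and 24 to 1403 (316). For the responses they ran from 1 to 21 (2), 0 to 8 (1) and 0 to 144 (16). In each treatment, the highest counts for GILZ TG against WT and for GILZ KO against GILZ TG came without GILZ TG replicate 3. That left replicates 1 and 2, the libraries high in stromal, neutrophil and B-lineage markers, as the GILZ TG group. The cause was not tested.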
